A study of Schizosaccharomyces pombe with 4 samples.

Results

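The subtelomeric zone described here lies 25 to 50 kb from the tiled ends of chromosomes 1 and 2 of the fission yeast Schizosaccharomyces pombe. It was taken by distance alone: it holds the non-control probes whose array position lies more than 25000 and at most 50000 bp from the smallest or largest position tiled on the chromosome. The rule took 314 of the 41551 non-control probes, with 79 on the left and 83 on the right of chromosome 1, and 70 on the left and 82 on the right of chromosome 2. Of these, 10 carried an outlier flag on at least 1 array (0, 6, 2 and 2 at the same ends) and were left out, so 304 probes gave values.

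The arrays measured newly made histone H3. Every strain carried cdc25-22, a temperature-sensitive mutation that holds cells at G2/M at 36 °C, together with a recombinase-based tag exchange at H3: 1 µM β-estradiol for 2 h let Cre recombinase replace an HA tag by a T7 tag, so that H3 made afterwards carried T7. Every strain also carried tetR-clr4, a fusion of the H3K9 methyltransferase Clr4 to the TetR DNA-binding protein under a thiamine-repressible promoter, and a tetO-ade6+ reporter as its landing site. The 2 genotypes were wt and clr3-CDx2, and each was grown in both tethering states. In OFF, cells grew with 5 µg/ml thiamine and 2.5 µg/ml tetracycline. In ON, they grew without thiamine for 20 generations. Growth was at 26 °C, the arrest lasted 4 h, and chromatin was fixed with 1% formaldehyde and sheared, with a stated size of 1000 bp. The sources used here do not say what the CDx2 allele changes or where tetO-ade6+ sits. Each of the 4 groups was 1 array (wt OFF, clr3-CDx2 OFF, wt ON, clr3-CDx2 ON), with immunoprecipitated H3-T7 DNA in Cy5 and input DNA in Cy3.

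As background, fission yeast subtelomeres are packed into heterochromatin that starts at the telomere repeats, through the shelterin proteins, and at telomere-linked helicase genes, through RNA interference, and then spreads inward. Spreading needs Clr4, which methylates H3 at lysine 9 and also binds that mark, and the SHREC complex, whose deacetylase subunit Clr3 removes acetyl groups from H3 lysine 14. SHREC is brought in through the HP1 protein Chp2 and the shelterin partner Ccq1, and is known to limit the exchange of old for new histones. Clr4 is drawn to nucleosomes that already bear its mark, so the keeping of parental H3 bears on the inheritance of a silent domain.

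All values are levels of H3-T7 over input, as log2(Cy5/Cy3) centred on the median probe of each array. A level of 0 is therefore the array's median probe, and a negative level means less new H3 than there. No array of total H3 was used here, so little new H3 and little H3 of any age cannot be told apart.

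Array positions were placed on the RefSeq assembly ASM294v3 by matching the input signal to base composition along each end. The best shift put the zone at chromosome I, 24481 to 49140 (left) and 5529221 to 5553880 (right), and at chromosome II, 26881 to 50040 (left) and 4459081 to 4483740 (right). On the right of chromosome 2 the last tiled probe falls 30864 bp short of the assembly's end, so the zone there is 56.1 to 80.7 kb from that end, deeper than at the other ends. GC content was 33.0%, 32.6%, 33.3% and 32.7% at chromosome 1 left, 1 right, 2 left and 2 right, against 36.1% and 35.9% for whole chromosomes I and II. The match was imperfect (correlation between measured and predicted input 0.42 to 0.65 at the 4 ends, against 0.30 to 0.49 for the next best shift), and the method put 15 of 20 simulated blocks within 150 bp. Statements by distance do not use this placement, while those on genes do.

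Chromosome 1 left is a special case. A copy of at least 95% identity and 200 bp elsewhere in the assembly covered 99.6% of its bases, against 5.02% at chromosome 1 right, 12.8% at chromosome 2 left and 4.29% at chromosome 2 right. The longest, 14843 bp at 99.59% identity, joins chromosome I, 34314 to 49140, with chromosome II, 14527 to 29352. The 79 probes of this end all carry an f or m suffix in their names, as do 5, 2 and 8 probes at the other ends, and a probe whose sequence has a copy can read more than 1 place.

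The upstream 250 bases are shown for the zone genes with the largest genotype or tethering effect at their end, unless they overlap another coding gene. Stretches between coding genes carried the lowest levels described later. Of the 250 bases, 222 at ght7, 189 at say1 and 1 at pdc102 lie in another annotated gene that is not protein-coding. The sequences come from RefSeq, ASM294v3, and end at the base before the transcript start. Capitals mark the motifs searched on both strands: AAAAAAA, a poly(dA:dT) tract of the kind known to disfavour nucleosomes (a run of T is the same motif on the other strand), and TGACGT, the core of the site of cAMP-response-element binding factors such as Atf1. SPAC186.06 at chrI:5541782-5542031 on the plus strand, pdc102 at chrI:5552561-5552810 on the plus strand, ght7 at chrII:40144-40393 on the minus strand, say1 at chrII:4460309-4460558 on the plus strand and SPBPB2B2.05 at chrII:4466360-4466609 on the plus strand are given 5′ to 3′.
SPAC186.06: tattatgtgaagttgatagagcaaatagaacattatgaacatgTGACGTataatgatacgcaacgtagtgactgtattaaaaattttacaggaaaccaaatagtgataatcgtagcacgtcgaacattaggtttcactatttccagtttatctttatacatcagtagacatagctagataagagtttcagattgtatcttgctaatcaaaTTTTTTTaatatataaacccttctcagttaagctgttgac
pdc102: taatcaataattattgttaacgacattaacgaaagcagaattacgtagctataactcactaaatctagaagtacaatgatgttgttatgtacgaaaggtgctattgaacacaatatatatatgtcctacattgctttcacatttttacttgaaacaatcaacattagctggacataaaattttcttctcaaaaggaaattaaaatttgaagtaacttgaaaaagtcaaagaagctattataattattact
ght7: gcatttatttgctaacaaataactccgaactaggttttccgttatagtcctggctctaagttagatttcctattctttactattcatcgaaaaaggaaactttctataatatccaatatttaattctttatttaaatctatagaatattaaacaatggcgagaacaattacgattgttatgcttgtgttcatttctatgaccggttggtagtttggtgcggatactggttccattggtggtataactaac
say1: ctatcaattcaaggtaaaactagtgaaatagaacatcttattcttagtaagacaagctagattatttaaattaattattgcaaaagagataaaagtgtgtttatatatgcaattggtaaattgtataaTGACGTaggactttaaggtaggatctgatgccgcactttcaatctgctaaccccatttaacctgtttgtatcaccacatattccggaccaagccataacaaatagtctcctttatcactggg
SPBPB2B2.05: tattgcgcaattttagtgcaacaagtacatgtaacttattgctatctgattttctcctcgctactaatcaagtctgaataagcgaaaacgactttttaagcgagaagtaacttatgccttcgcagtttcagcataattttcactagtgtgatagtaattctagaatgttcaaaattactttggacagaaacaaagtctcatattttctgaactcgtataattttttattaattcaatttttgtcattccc

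The poly(dA:dT) tract occurs in 13 of the 23 zone genes' upstream regions and in 33.6% of all 5112, and TGACGT in 4 of 23 and in 5.52%. Among the printed sequences, SPAC186.06 holds both motifs, say1 holds TGACGT, and pdc102, ght7 and SPBPB2B2.05 hold neither. The probes within 600 bp upstream read the stretches that contain these sequences. Upstream of ght7, 2 probes had a mean level of -1.92 in wt and -0.38 in clr3-CDx2 with tethering OFF, and -1.69 and -0.84 with tethering ON. Upstream of say1, 2 probes had -1.10 in wt and -0.17 in clr3-CDx2 with tethering OFF, and -0.77 and 0.24 with tethering ON. Upstream of SPBPB2B2.05, 2 probes had -1.32 in wt and -0.36 in clr3-CDx2 with tethering OFF, and -0.15 and -0.03 with tethering ON. At these 3 genes the stretch was lowest in wt OFF and higher in clr3-CDx2 than in wt in both tethering states. The genes were chosen for their effects, and fragments of 1000 bp can span gene and upstream stretch. These upstream levels are therefore no separate observation about the sequences. Upstream of SPAC186.06, 2 probes had -0.29 in wt and -0.051 in clr3-CDx2 with tethering OFF, and -0.78 and 0.17 with tethering ON. The single probe upstream of pdc102 had -0.42 in wt and -0.64 in clr3-CDx2 with tethering OFF, and -1.27 and -0.87 with tethering ON, and here clr3-CDx2 was the lower genotype in OFF and the higher in ON.

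Signal did not limit the reading of the zone. All 314 probes were well above background in both channels on all 4 arrays and none was saturated. The median probe of the zone exceeded background 71.7-fold, 86.7-fold, 49.5-fold and 99.2-fold in Cy5 (wt OFF, clr3-CDx2 OFF, wt ON, clr3-CDx2 ON) and 175-fold to 332-fold in Cy3. Each group was 1 array, so no replicate spread is known, and the 4 arrays set the precision. The altered gene, clr3, had a level of -0.14, 0.44, -0.14 and 0.94 on the same arrays in order, so that both clr3-CDx2 arrays stood above both wt arrays there. A new-H3 level at the gene is no measure of its sequence or activity. The lowest probe of the zone, 36600 bp from chromosome 2 left, read -4.78, -4.10, -4.66 and -4.02 on the 4 arrays, and the next lowest in wt OFF read -2.39.

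In wild-type cells with tethering off, the zone held less new H3 than the median probe at all 4 ends, and in clr3-CDx2 it held more than in wild type at each of them, by little at chromosome 1 right. Tethering ON came with lower levels at 3 ends and higher levels at chromosome 2 right, in both genotypes. At chromosome 1 left the mean level was -0.49 ± 0.61 in wt and -0.11 ± 0.39 in clr3-CDx2 with tethering OFF, and -0.98 ± 0.49 and -0.39 ± 0.55 with tethering ON (SD over probes, n = 79 probes on 1 array each). At chromosome 1 right it was -0.53 ± 0.55 in wt and -0.39 ± 0.35 in clr3-CDx2 with tethering OFF, and -0.94 ± 0.48 and -0.59 ± 0.40 with tethering ON (SD over probes, n = 77 probes on 1 array each). At chromosome 2 left, where the wt OFF mean was lowest, it was -0.93 ± 0.91 in wt and -0.16 ± 0.65 in clr3-CDx2 with tethering OFF, and -1.45 ± 0.58 and -1.02 ± 0.52 with tethering ON (SD over probes, n = 68 probes on 1 array each). At chromosome 2 right it was -0.70 ± 0.59 in wt and 0.071 ± 0.33 in clr3-CDx2 with tethering OFF, and -0.38 ± 0.62 and 0.46 ± 0.40 with tethering ON (SD over probes, n = 80 probes on 1 array each), and both clr3-CDx2 means lay above the array median. By the median over probes, wt OFF was lower at chromosome 2 right (-0.69) than at chromosome 2 left (-0.62). The share of probes under the array median went from 89.7%, 47.1%, 100% and 100% at chromosome 2 left (wt OFF, clr3-CDx2 OFF, wt ON, clr3-CDx2 ON) to 86.2%, 35%, 68.8% and 11.2% at chromosome 2 right. In wt ON, all 79 probes of chromosome 1 left and all 68 of chromosome 2 left lay under it.

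**Figure D1:**
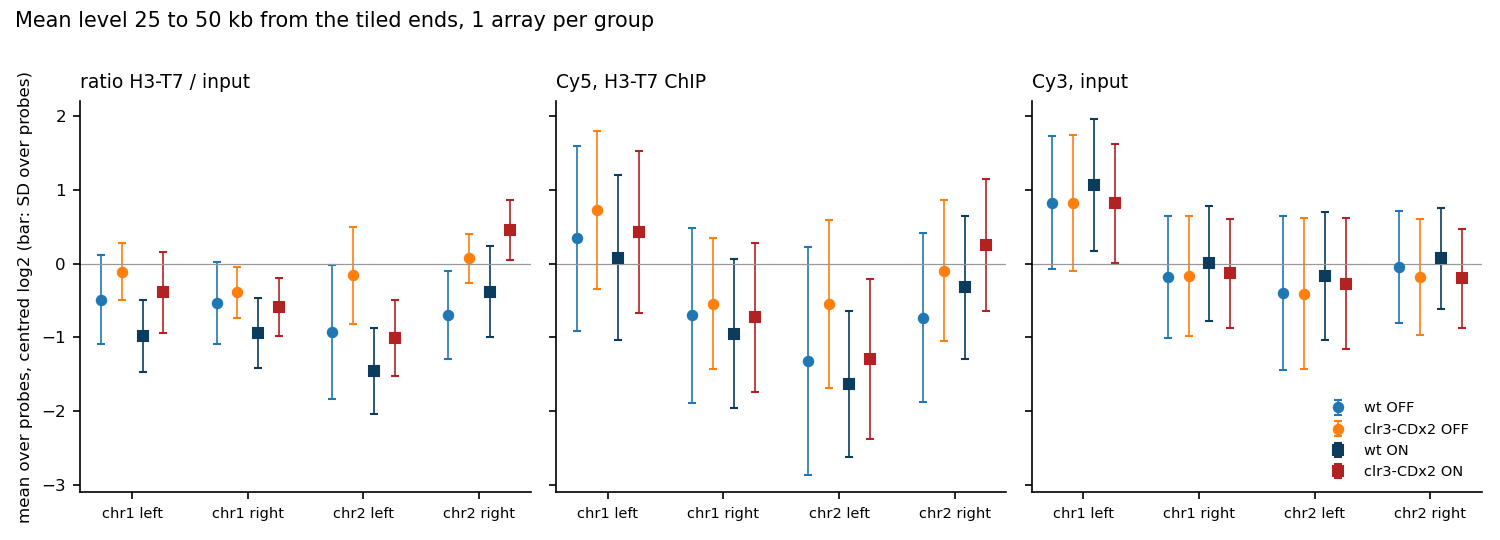
Centred log2 levels of the probes 25 to 50 kb from each of the 4 tiled ends, with 1 panel each for the ratio of new H3 to input, for Cy5 (new H3) and for Cy3 (input). Each marker is the mean over the probes of 1 end on 1 array, and the bars are the SD over probes. The ratio means at chromosome 2 right are 0.071 and 0.46 in clr3-CDx2 OFF and ON, while the 3 other ends stay at or under -0.11 on all arrays.

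The channels were also read apart. Centred Cy3 (input) means were 0.82, 0.82, 1.07 and 0.82 at chromosome 1 left, where nearly all bases have a copy elsewhere. At the other 3 ends they lay between -0.41 and 0.07. Centred Cy5 means were 0.34, 0.73, 0.078 and 0.42 at chromosome 1 left and -0.70, -0.55, -0.95 and -0.73 at chromosome 1 right. At chromosome 2 left they were -1.32, -0.55, -1.63 and -1.29, and at chromosome 2 right -0.73, -0.10, -0.32 and 0.25. At chromosome 2 right the order of the 4 arrays in Cy5 was that of the ratio. At chromosome 2 left clr3-CDx2 OFF was highest and wt ON lowest in both, and the other 2 arrays lay close together and changed places.

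**Figure D2:**
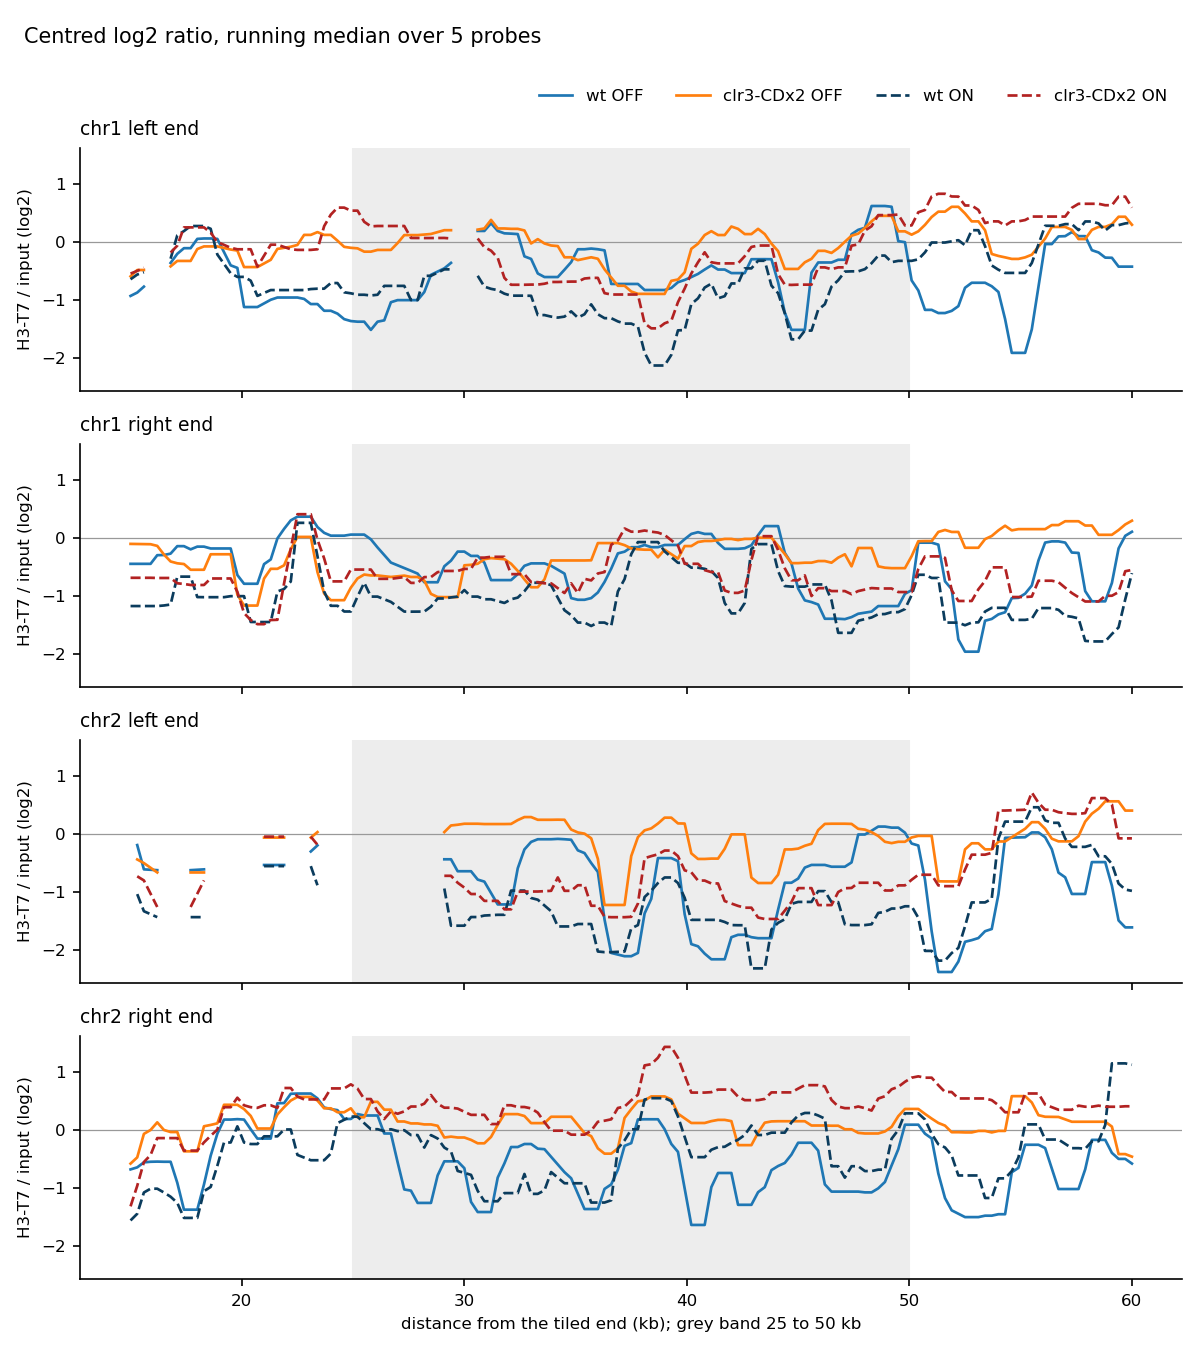
Running median over 5 probes of new H3 over input (log2, centred) against distance from the tiled end in kb for each of the 4 ends, 1 line per array, with the zone from 25 to 50 kb as a grey band. Deep troughs of wt OFF at chromosome 2 left and the separation of the genotypes along chromosome 2 right can be followed across the zone edges.

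The deficit of new H3 in wild type was deeper between coding genes than inside them. Over the 4 ends, the 183 probes between coding genes had a mean level of -0.88 ± 0.71 in wt OFF, and the 121 probes in coding genes -0.31 ± 0.47 (SD over probes). In clr3-CDx2 OFF the same means were -0.21 and -0.046, so that the gap narrowed from -0.58 to -0.16. In wt ON they were -1.06 and -0.70, and in clr3-CDx2 ON -0.46 and -0.20. Over the pooled probes, wild type with tethering off thus had the widest gap of the 4 arrays and clr3-CDx2 OFF the narrowest. At chromosome 1 left, however, the gap was narrower in clr3-CDx2 ON (-0.070) than in clr3-CDx2 OFF (-0.21). The wt OFF gap was largest at chromosome 2 left (-0.87) and lay between -0.51 and -0.48 at the other 3 ends. In OFF, clr3-CDx2 exceeded wt by 0.67 between genes and 0.26 inside them, while in ON the 2 excesses were 0.60 and 0.50. In the next 75 kb inward the wt OFF gap was -0.77, and deeper still, over 31352 probes, it was -0.12. These are descriptions over probes of 1 array each and carry no test. The split rests on the estimated placement and was not repeated at other offsets. With fragments of 1000 bp, a probe between genes can also read DNA of a neighbouring gene.

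**Figure D3:**
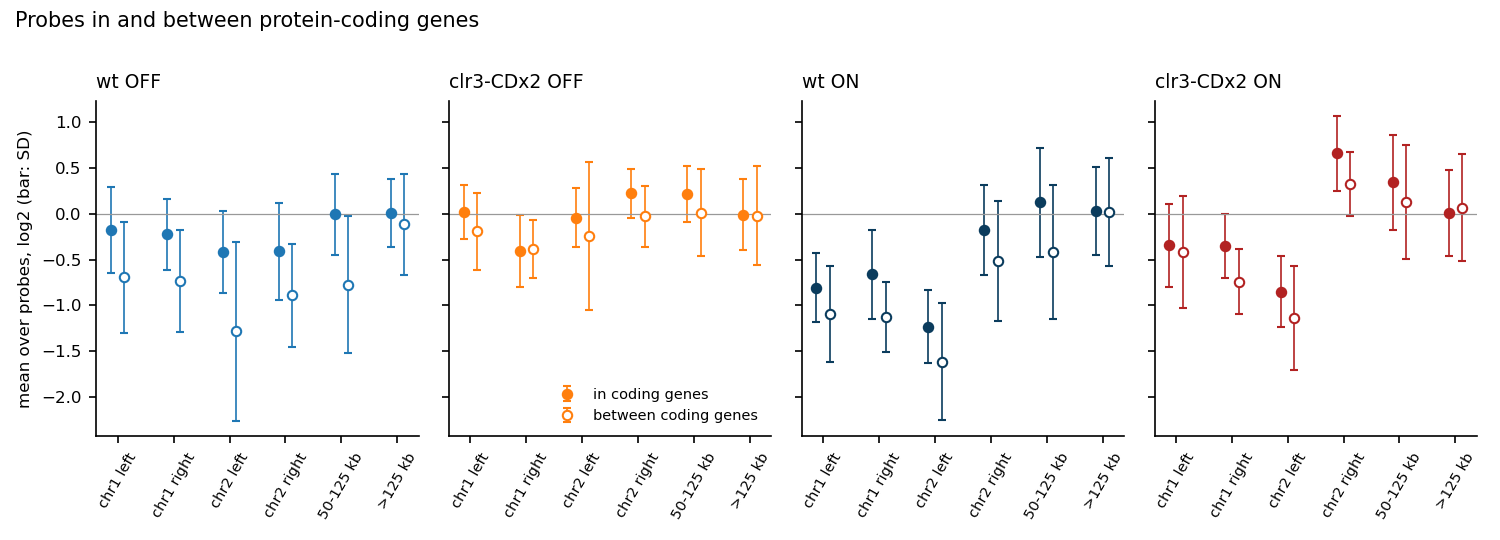
Mean level of new H3 over input (log2, centred) of probes in coding genes (filled) and between them (open), 1 panel per array, for the 4 zones, the next 75 kb inward and the rest of chromosomes 1 and 2, with SD over probes as bars. In wt OFF the probes between genes lie under those in genes in each zone, and in clr3-CDx2 OFF they lie closer together, with a gap of 0.021 at chromosome 1 right.

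The first comparison asks what accompanied the clr3-CDx2 allele in new H3 of the zone. Each group was 1 array, so genotype and differences between cultures or arrays cannot be told apart. New H3 was higher in clr3-CDx2 at all 4 ends and in both tethering states, most evenly at chromosome 2 right and least at chromosome 1 right, where the sign in OFF depends on the settings. In OFF, clr3-CDx2 minus wt was 0.38 ± 0.50 at chromosome 1 left (SD over probes, 57 of 79 above 0), 0.14 ± 0.56 at chromosome 1 right (41 of 77), 0.77 ± 0.63 at chromosome 2 left (62 of 68) and 0.77 ± 0.40 at chromosome 2 right (79 of 80). In ON it was 0.59 ± 0.32 (77 of 79), 0.36 ± 0.36 (65 of 77), 0.44 ± 0.37 (60 of 68) and 0.84 ± 0.42 (79 of 80) at the same ends. At chromosome 1 right the OFF difference turned to -0.17 for a zone of 20 to 45 kb and to -0.034 with normexp background correction, and was 0.44 for a zone of 30 to 55 kb. With normexp the value of chromosome 2 left was 0.38. The mean of chromosome 2 left and that of chromosome 2 right were each 1.70-fold higher in OFF, and in ON the folds were 1.36 and 1.79. In OFF the Cy5 parts were 0.38, 0.16, 0.76 and 0.64, and the Cy3 parts -0.0041, 0.011, -0.0067 and -0.13. In ON the Cy3 parts were -0.25, -0.14, -0.10 and -0.27, beside Cy5 parts of 0.35, 0.22, 0.34 and 0.57. The input, higher in wt ON than in clr3-CDx2 ON, thus made up part of the ratio difference there. Over all 304 probes centred Cy3 was 0.067, 0.031, 0.26 and 0.066 (wt OFF, clr3-CDx2 OFF, wt ON, clr3-CDx2 ON), and wt ON was highest at each end.

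For a test, windows of 2500 bp with at least 4 probes were fitted with limma over the whole array with tethering and genotype in 1 model, which leaves 1 residual degree of freedom, holding the interaction. Of the 39 zone windows, 26 rose in clr3-CDx2 at a Benjamini-Hochberg adjusted p under 0.05 (6, 3, 8 and 9 at chromosome 1 left, 1 right, 2 left and 2 right), against 2.63% of all 4972 windows. By limma 0 fell (0.302% of all windows; also 0 at an unadjusted p under 0.05, where 30 rose). The median window effect was 0.56 in the zone and -0.0037 over all windows. The fit shares 1 residual SD over all windows, so each effect had an SE of 0.126. The zone windows scatter more, with a residual SD of 0.228. With the spread estimated apart for the subtelomeres, from the ends to 75 kb past the zone (SE 0.185), 17 of the 39 windows passed, 2, 1, 5 and 9 at the same ends. Normexp background correction left 14, and a fit of genotype alone, which puts the tethering difference into the error, left 1. That fit called 6 without wt OFF, 10 without clr3-CDx2 OFF, 10 without wt ON and 12 without clr3-CDx2 ON, and with an array left out its arms differ in tethering too, so these counts mix both factors. At chromosome 2 right, 9 of 10 windows rose under both estimates of the spread, while the count at chromosome 1 right went from 3 to 1 and that at chromosome 1 left from 6 to 2.

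By array position, the windows that rose most lay at 3 ends. At chromosome 1 left, 25 to 27.5 kb, the level was -1.29 in wt and -0.13 in clr3-CDx2 with tethering OFF, and -0.89 and 0.29 with tethering ON, a genotype effect of 1.17 by limma (SE 0.126, adjusted p = 1.87e-17). All 8 probes of that window carry the f or m suffix, and its stretch has copies of 99.17% identity on chromosome II. Its signal can therefore not be assigned to chromosome 1 left alone. Over 40 to 42.5 kb of chromosome 2 left, on ght7's upstream side, it was -1.98 in wt and -0.28 in clr3-CDx2 with tethering OFF, and -1.53 and -0.97 with tethering ON, an effect of 1.13 by limma (adjusted p = 2.29e-16). Over 30 to 32.5 kb of chromosome 2 right it was -1.10 in wt and -0.12 in clr3-CDx2 with tethering OFF, and -1.12 and 0.13 with tethering ON, an effect of 1.11 by limma (adjusted p = 5.53e-16). In the first and the last of these, both clr3-CDx2 arrays stood above both wt arrays by a like amount in OFF and ON. In the chromosome 2 left window the difference was 1.69 in OFF and 0.56 in ON, where clr3-CDx2 ON came down toward wt. Its interaction, -1.13, was as large as its genotype effect. The limma p-values of single windows, here and for ON, rest on the SD shared over all windows and measure no spread between cultures. The window of 40 to 42.5 kb at chromosome 2 right, with -1.18 in wt and -0.13 in clr3-CDx2 with tethering OFF, and -0.61 and 0.53 with tethering ON, also rose (1.09, limma adjusted p = 2.14e-15).

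Counted by size alone, at least 1.5-fold, 20 of 39 windows were higher in clr3-CDx2 in OFF (1.75% of all windows) and 14 in ON (1.35%), and 0 were lower in either state (0.0402% and 0.322%). Of the 304 zone probes, 126 (41.4%) in OFF and 115 (37.8%) in ON lay in runs of at least 5 probes higher in clr3-CDx2, against 1.63% and 1.26% of all probes. The longest run inside the zone in OFF covered ght7 at chromosome II, 37381 to 44640, with 25 probes over 7260 bp. Its mean levels were -1.58 in wt and -0.31 in clr3-CDx2 with tethering OFF, and -1.48 and -0.97 with tethering ON, so clr3-CDx2 OFF stood apart from the other 3 arrays. In ON the longest spanned pan5 and its neighbours at chromosome II, 4471381 to 4481340, with 32 probes over 9960 bp and a mean difference of 0.99 ± 0.36 over probes. Here the levels were -0.85, -0.027, -0.77 and 0.23 on the 4 arrays in the same order, and the genotypes were apart in both states. A run of 27 probes at chromosome 1 left, 13 of them in the zone, crossed the 25 kb edge with -1.12, -0.048, -0.83 and 0.14. Chromosome 1 right held runs in both directions: 16 probes (15 in the zone) over SPAC186.02C were higher in clr3-CDx2 OFF by 0.86, and 9 probes (3 in the zone) over pdc102 were lower, with a difference of -0.93 on the log2 scale. That is the single run lower in clr3-CDx2 OFF on the whole array, and its mean levels were 0.071, -0.86, -1.0 and -0.59, with wt OFF above the other 3 arrays.

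**Figure D4:**
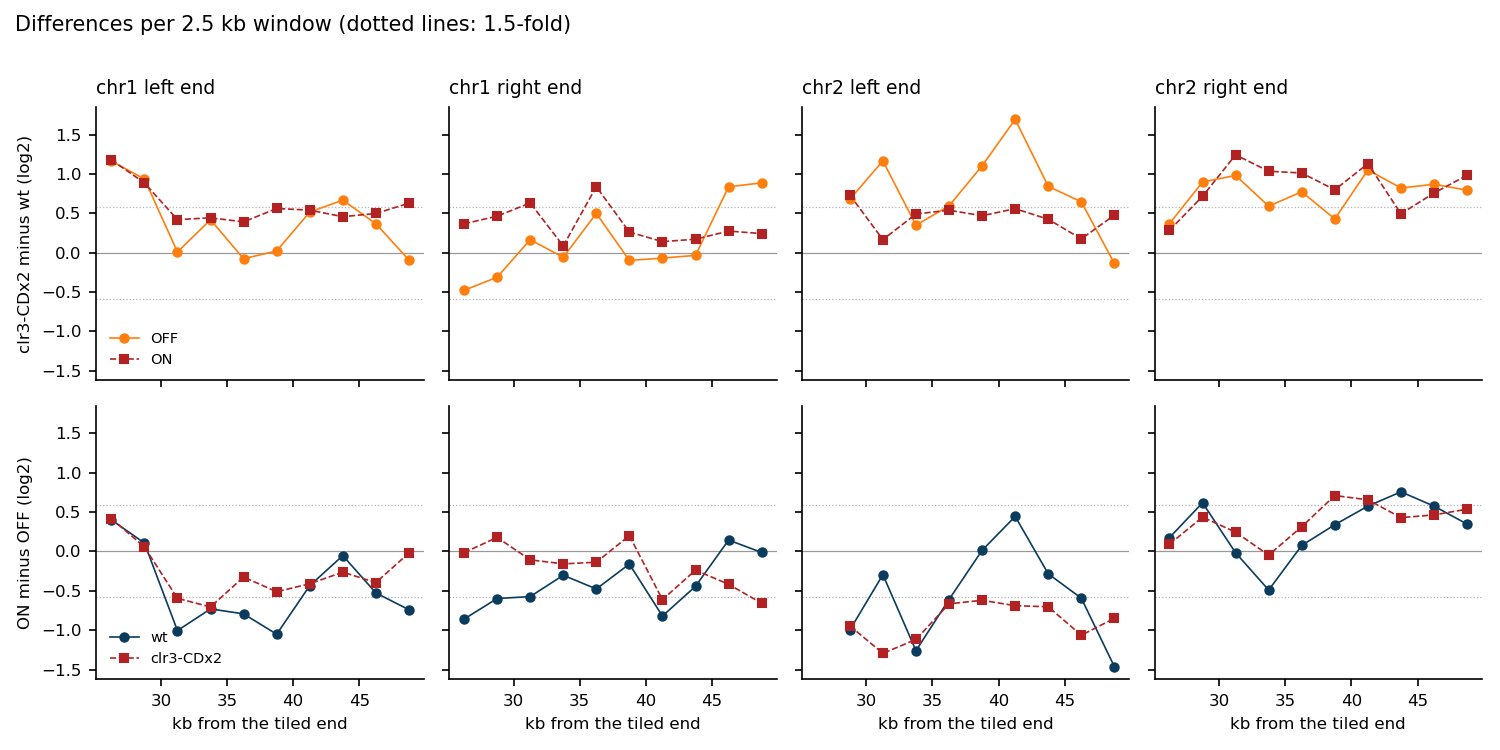
Differences in new H3 over input (log2) in each of the 39 windows of 2.5 kb against distance from the tiled end in kb, 1 column per end. The top row shows clr3-CDx2 minus wt in OFF and ON and the bottom row ON minus OFF in wt and clr3-CDx2, with dotted lines at 1.5-fold. In the top row all points of chromosome 2 right lie above 0, the OFF points of chromosome 2 left peak at 1.69, and those of chromosome 1 right run from -0.48 to 0.89.

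Genotype differences in ON can be set against the depth of the trough in wt OFF, which is a different array. The 13 windows lowest in wt OFF (-1.98 to -0.82) had clr3-CDx2 minus wt of 0.68 ± 0.38 in ON, the middle 13 had 0.55 ± 0.25 and the highest 13 had 0.46 ± 0.25 (SD over windows). The ranges overlap, from 0.17 to 1.24 among the lowest and from 0.14 to 1.04 among the highest.

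The second comparison asks what accompanied the expression of TetR-Clr4 (ON). ON and OFF cultures also differed in medium, with and without thiamine and tetracycline, so tethering and medium cannot be told apart. The ends moved in opposite directions within the zone, a split by end that the zones on either side did not share (given further on). In the zone, ON minus OFF in wt was -0.49 ± 0.52 at chromosome 1 left, -0.41 ± 0.45 at chromosome 1 right, -0.53 ± 0.72 at chromosome 2 left and 0.31 ± 0.54 at chromosome 2 right (SD over 79, 77, 68 and 80 probes). In clr3-CDx2 it was -0.28 ± 0.40, -0.20 ± 0.43, -0.86 ± 0.44 and 0.39 ± 0.32. With the arrays scaled to equal spread, the wt value at chromosome 2 left was -0.25. The difference of these differences was 0.21, 0.21, -0.33 and 0.072 in the same order, and was not tested. The zone at chromosome 2 right was thus higher in ON in both genotypes and those at the other 3 ends were lower. The chromosome 2 right zone is also the one that lies deepest from the assembly's end, whose part in this was not tested. In wt the Cy5 parts were -0.27, -0.25, -0.32 and 0.42 and the Cy3 parts 0.24, 0.18, 0.23 and 0.12, so that higher input made up part of the fall in the ratio at 3 ends. Over all 304 probes the wt parts were -0.093 in Cy5 and 0.19 in Cy3. In clr3-CDx2 the Cy3 parts were -0.0014, 0.034, 0.13 and -0.016, so in that genotype the input barely took part except at chromosome 2 left. Feature Extraction had detrended both channels on the OFF arrays and only Cy3 on the ON arrays. Signals from before that step moved no end's level or difference by more than 0.0348.

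By limma, 16 of the 39 windows fell in ON (7, 2, 7 and 0 at chromosome 1 left, 1 right, 2 left and 2 right), against 3.78% of all windows, and 7 rose (1, 0, 0 and 6), against 7.86%. At an unadjusted p under 0.05, 22 fell and 7 rose. With the spread estimated apart near the ends, 11 fell (4, 1, 6 and 0) and 5 rose (0, 0, 0 and 5). Probe levels also varied more on the ON arrays (scaled median absolute deviation 0.481 in wt and 0.484 in clr3-CDx2) than on the OFF arrays (0.378 and 0.396). With the 4 arrays scaled to equal spread, 11 windows fell and 7 rose. A fit of tethering alone called 4 falling and 0 rising. It called 16 and 0 without wt OFF, 8 and 10 without clr3-CDx2 OFF, 0 and 0 without wt ON, and 4 and 0 without clr3-CDx2 ON, where the arms likewise differ in genotype. The median window effect was -0.31 in the zone and 0.024 over all windows. The input channel alone, fitted in the same way, gave 0 zone windows rising or falling by limma for either factor. At an unadjusted p under 0.05, 16 rose and 1 fell in ON, and 0 rose and 11 fell in clr3-CDx2.

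The windows that fell most lay at chromosome 2 left. At 32.5 to 35 kb the level was -0.084 in wt and 0.27 in clr3-CDx2 with tethering OFF, and -1.34 and -0.85 with tethering ON (tethering effect -1.19, limma adjusted p = 4.48e-18). At 47.5 to 50 kb it was 0.078 in wt and -0.059 in clr3-CDx2 with tethering OFF, and -1.39 and -0.91 with tethering ON (-1.16, limma adjusted p = 3.55e-17). Both windows were near the array median in OFF in either genotype and well under it in ON. At chromosome 1 left, 37.5 to 40 kb, it was -0.80 in wt and -0.78 in clr3-CDx2 with tethering OFF, and -1.85 and -1.29 with tethering ON (-0.78, limma adjusted p = 7.9e-08). The 6 windows that rose at chromosome 2 right had tethering effects from 0.44 to 0.62. At chromosome 2 left, 2 windows that were already low in wt OFF, 35 to 37.5 kb (-1.52) and 40 to 42.5 kb (-1.98), went different ways in wt ON, to -2.13 and -1.53.

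By size, 13 of the 39 windows were at least 1.5-fold lower in wt ON than in wt OFF (1.31% of all windows) and 2 higher (3.12%), and in clr3-CDx2 13 were lower (0.885%) and 2 higher (1.69%). Of the 13 in wt, 5 lay at chromosome 1 left, 3 at chromosome 1 right and 5 at chromosome 2 left, and of the 13 in clr3-CDx2, 2, 2 and 9. Runs lower in ON took up 91 of 304 zone probes in wt (29.9%, against 1.14% of all probes) and 65 in clr3-CDx2 (21.4%, against 0.862%). Runs higher in ON took 16 (5.26%, against 3.18%) and 6 (1.97%, against 1.84%), all at chromosome 2 right, shares close to those of the whole array in clr3-CDx2. The longest run lower in wt ON held 32 probes over 9360 bp at chromosome I, 29881 to 39240, across ftm1, SPAC977.18 and ftm2, at -0.38 in wt and -0.29 in clr3-CDx2 with tethering OFF, and -1.27 and -0.82 with tethering ON. In clr3-CDx2 the longest was one of 31 probes, 28 in the zone, at chromosome II, 41881 to 50940, across SPBPB8B6.02C, fah1 and grt1, at -0.78, -0.18, -1.49 and -1.07. A run of 22 probes between 29100 and 36000 bp at the same end went from 0.14 to -0.98 in that genotype. In these runs both ON arrays lay under both OFF arrays.

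Protein-coding genes with at least 50% of their used probes in the zone numbered 32, of which 23 had at least 3 probes and were valued and 9 had 1 or 2 and were not (SPAC212.02, SPAC977.03, SPAC977.04, SPAC977.05C, SPAC977.06, ayr2, SPBC1348.10C, SPBPB2B2.08 and SPBPB2B2.07C). By limma over 4596 genes, 8 of 23 rose in clr3-CDx2 (0.783% of all genes) and 0 fell (0.305%; at an unadjusted p under 0.05, 15 rose and 1 fell). In ON, 10 fell (3.68%) and 3 rose (5.83%; unadjusted 13 and 4), or 8 and 4 with the arrays scaled to equal spread. The median gene effect of clr3-CDx2 was 0.35 in the zone and -0.023 over all genes, and that of tethering -0.30 and 0.0068. Every gene effect had an SE of 0.13 under the shared spread. With the spread estimated apart near the ends, 0 genes passed for clr3-CDx2 by limma (10 at an unadjusted p under 0.05), and for tethering 5 of the 10 fell and 1 of the 3 rose. Fits of 1 factor alone that left out wt OFF, clr3-CDx2 OFF, wt ON or clr3-CDx2 ON gave, in that order, 0, 1, 0 and 0 genes rising in clr3-CDx2, and 9, 6, 3 and 8 falling with 0, 4, 1 and 0 rising in ON. SDs given with genes are over a gene's probes, and where 2 adjusted p-values are given, the second is that of the separate spread. By size, at least 1.5-fold, 4 genes were higher and 2 lower in clr3-CDx2 in OFF (0.544% and 0.196% of all genes), and 7 higher and 0 lower in ON (0.892% and 0.522%). In wt, 1 gene was higher and 10 lower in ON (2.22% and 1.61%), and in clr3-CDx2 2 and 7 (1.59% and 0.849%).

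Chromosome 2 right carried the 2 genes that rose most in clr3-CDx2, say1 and SPBPB2B2.05. say1 (chromosome II, 4460559 to 4462134), annotated as a sterol deacetylase, had a level of -1.05 in wt and 0.014 in clr3-CDx2 with tethering OFF, and -0.69 and 0.43 with tethering ON (SD 0.11 to 0.15 over 6 probes). It rose in clr3-CDx2 under the shared spread (1.09, limma adjusted p = 3.32e-13 and 0.0759), and both clr3-CDx2 levels were above both wt levels. SPBPB2B2.05 (chromosome II, 4466610 to 4467612), of the class I glutamine amidotransferase family, had -0.86 in wt and 0.075 in clr3-CDx2 with tethering OFF, and -0.18 and 0.72 with tethering ON (SD 0.14 to 0.38 over 4 probes). It rose in clr3-CDx2 under the shared spread (0.92, limma adjusted p = 1.87e-09 and 0.116) and in ON under both (0.66, limma adjusted p = 3.21e-05 and 0.0429), and was the gene of the zone that was at least 1.5-fold apart in all 4 pairs. SPBPB2B2.06C (chromosome II, 4469018 to 4471164), a phosphoprotein phosphatase, had 0.092 in wt and 0.52 in clr3-CDx2 with tethering OFF, and 0.43 and 1.23 with tethering ON (SD 0.12 to 0.33 over 7 probes). Under the shared spread it rose in clr3-CDx2 (0.61, limma adjusted p = 0.000479 and 0.327) and in ON (0.52, limma adjusted p = 0.00194 and 0.12), and clr3-CDx2 ON was more than 1.5-fold above each other array. pan5 (chromosome II, 4478687 to 4480164), a 2-dehydropantoate 2-reductase of pantothenate synthesis, had -0.61 in wt and -0.047 in clr3-CDx2 with tethering OFF, and -0.35 and 0.41 with tethering ON (SD 0.11 to 0.39 over 5 probes) and rose in clr3-CDx2 under the shared spread (0.66, limma adjusted p = 0.000108 and 0.237). say1 also rose in ON under the shared spread (0.39, limma adjusted p = 0.0372 and 0.163), and ON minus OFF was 0.36 in wt and 0.42 in clr3-CDx2. gal7, the galactose-1-phosphate uridylyltransferase of the galactose cluster, had 0.23 in wt and 0.44 in clr3-CDx2 with tethering OFF, and 0.068 and 0.42 with tethering ON and passed neither test.

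Among the genes of chromosome 2 left, that of a hexose transporter rose in clr3-CDx2 and 4 of its neighbours fell in ON. ght7 (chromosome II, 38514 to 40143) had -0.67 in wt and 0.26 in clr3-CDx2 with tethering OFF, and -0.80 and -0.34 with tethering ON (SD 0.15 to 0.46 over 6 probes), and rose in clr3-CDx2 under the shared spread (0.69, limma adjusted p = 3.77e-05 and 0.317). clr3-CDx2 OFF was the one array with a level above 0 there. fah1 (chromosome II, 47428 to 49071), an acetamidase, had -0.065 in wt and 0.025 in clr3-CDx2 with tethering OFF, and -1.57 and -0.81 with tethering ON (SD 0.13 to 0.24 over 5 probes), and fell in ON (-1.17, limma adjusted p = 6.76e-16 and 0.0291). grt1 (chromosome II, 47369 to 51181), a transcription factor gene on the other strand that contains fah1 and shares its probes, had -0.085 in wt and -0.0073 in clr3-CDx2 with tethering OFF, and -1.45 and -0.82 with tethering ON (SD 0.16 to 0.29 over 12 probes, 9 of them in the zone), and fell in ON (-1.09, limma adjusted p = 8.06e-14 and 0.0259). The array does not separate strands, so the 2 genes are 1 measurement in part. SPBC1348.12 (chromosome II, 35112 to 36589), a DNA-binding transcription factor gene, had -0.65 in wt and -0.34 in clr3-CDx2 with tethering OFF, and -1.71 and -1.17 with tethering ON (SD 0.29 to 0.53 over 5 probes), and fell in ON (-0.95, limma adjusted p = 1.44e-10 and 0.0187). SPBPB8B6.02C (chromosome II, 44694 to 46831), for a urea transporter, had -0.64 in wt and -0.089 in clr3-CDx2 with tethering OFF, and -1.08 and -1.11 with tethering ON (SD 0.22 to 0.26 over 7 probes), and fell in ON under the shared spread alone (-0.73, limma adjusted p = 2.37e-06 and 0.0816). In these 4 genes both ON arrays lay under both OFF arrays, and wt ON was the lowest array in 3 of them.

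At chromosome 1 left, where nearly all bases have a copy elsewhere, 4 of the 5 valued genes fell in ON. ftm1 (chromosome I, 29764 to 31069), a transmembrane protein of the 5Tm family, had 0.31 in wt and 0.28 in clr3-CDx2 with tethering OFF, and -0.67 and -0.094 with tethering ON (SD 0.14 to 0.26 over 4 probes), and fell under the shared spread alone (-0.68, limma adjusted p = 2.02e-05 and 0.107). ftm2 (chromosome I, 32230 to 33012), of the same family, had -0.49 in wt and 0.069 in clr3-CDx2 with tethering OFF, and -1.15 and -0.74 with tethering ON (SD 0.025 to 0.23 over 3 probes). It fell in ON (-0.73, limma adjusted p = 2.37e-06 and 0.0355) and rose in clr3-CDx2 under the shared spread (0.48, limma adjusted p = 0.0238 and 0.406). SPAC977.18 (chromosome I, 31140 to 32187), between them, had 0.012 in wt and 0.10 in clr3-CDx2 with tethering OFF, and -0.91 and -0.73 with tethering ON (SD 0.021 to 0.22 over 3 probes), and fell in ON (-0.88, limma adjusted p = 4.71e-09 and 0.0198). Each of the 3 was near or above the array median on at least 1 OFF array and under it on both ON arrays. plb4 (chromosome I, 45875 to 48160), a phospholipase gene, had 0.14 in wt and 0.16 in clr3-CDx2 with tethering OFF, and -0.47 and -0.018 with tethering ON (SD 0.16 to 0.44 over 7 probes), and fell under the shared spread alone (-0.40, limma adjusted p = 0.0314 and 0.239). pfl6, for a cell-surface glycoprotein, had -0.18 in wt and 0.12 in clr3-CDx2 with tethering OFF, and -0.38 and 0.019 with tethering ON and passed neither test.

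Chromosome 1 right held the mixed responses. SPAC186.06 (chromosome I, 5542032 to 5543031), an isomerase gene, had -0.42 in wt and -0.057 in clr3-CDx2 with tethering OFF, and -1.11 and -0.20 with tethering ON (SD 0.083 to 0.52 over 3 probes). Under the shared spread it rose in clr3-CDx2 (0.63, limma adjusted p = 0.000274 and 0.408) and fell in ON (-0.42, limma adjusted p = 0.0222 and 0.259), where wt ON was far under the other arrays and ON minus OFF was -0.69 in wt and -0.14 in clr3-CDx2. SPAC186.02C (chromosome I, 5529851 to 5530960), a hydroxyacid dehydrogenase gene, had -1.06 in wt and -0.39 in clr3-CDx2 with tethering OFF, and -1.27 and -0.78 with tethering ON (SD 0.12 to 0.32 over 3 probes), and rose in clr3-CDx2 under the shared spread (0.58, limma adjusted p = 0.00127 and 0.302). pdc102 (chromosome I, 5552811 to 5554529), for a pyruvate decarboxylase, the enzyme that opens alcoholic fermentation, had 0.054 in wt and -0.70 in clr3-CDx2 with tethering OFF, and -0.98 and -0.57 with tethering ON (SD 0.14 to 0.37 over 6 probes, 4 of them in the zone), and fell in ON under the shared spread (-0.45, limma adjusted p = 0.0106 and 0.453). That effect averages opposite signs, since ON minus OFF at pdc102 was -1.04 in wt and 0.13 in clr3-CDx2. SPAC186.08C (chromosome I, 5548884 to 5550012), for an L-lactate dehydrogenase, had -0.26 in wt and -0.92 in clr3-CDx2 with tethering OFF, and -1.02 and -0.53 with tethering ON (SD 0.058 to 0.30 over 4 probes) and passed neither test (-0.19 for tethering, limma adjusted p = 0.422). At pdc102 and SPAC186.08C, both of pyruvate metabolism, wt OFF was the highest array. SPAC186.07C, SPAC186.04C, SPAC186.03 and gdt1 were called in no pair and passed no test, with levels from -0.93 to 0.14. SPAC186.03, an L-asparaginase gene, is read by 4 probes that all carry the suffix, and has a close copy on chromosome II.

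**Figure D5:**
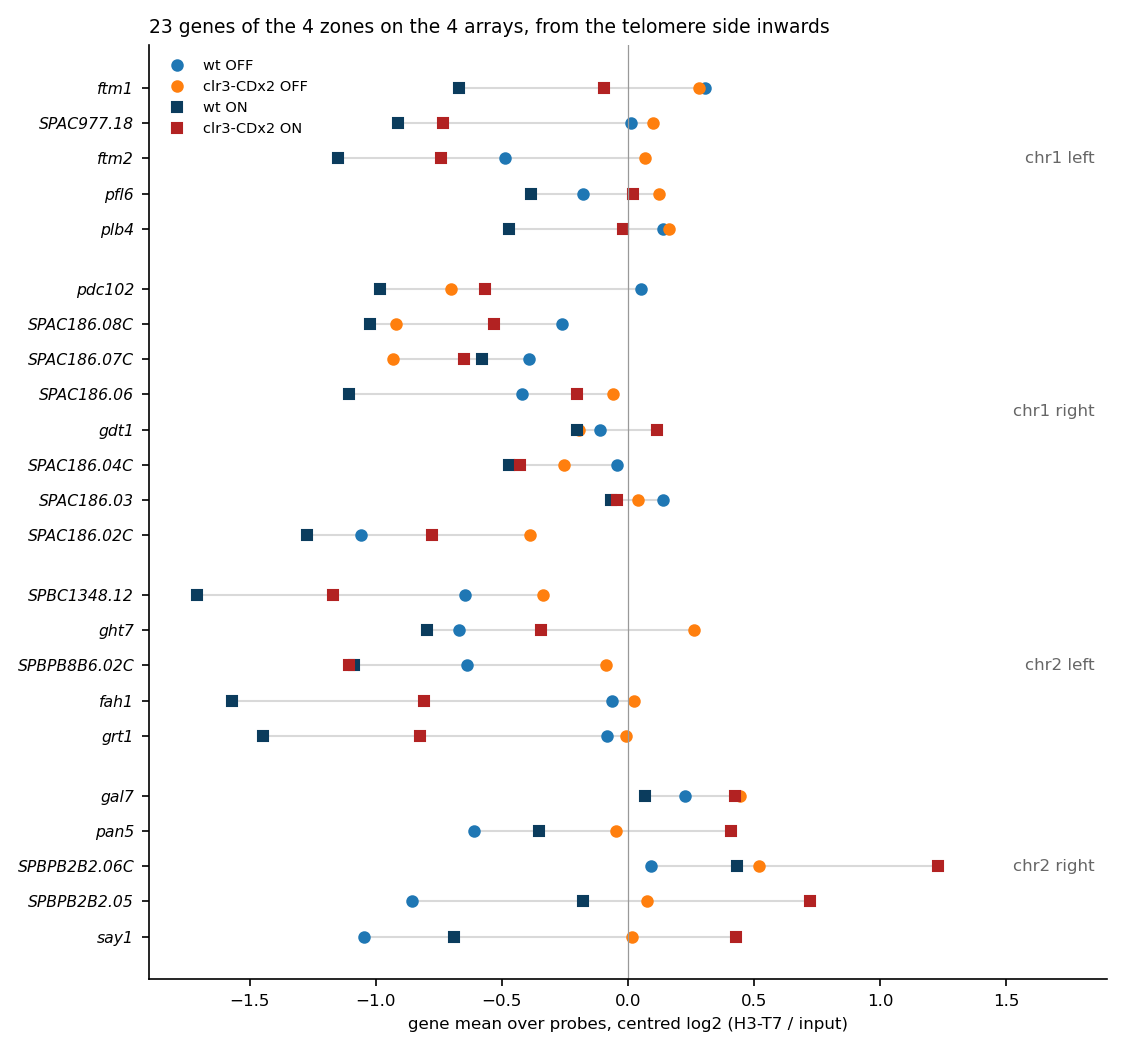
Level of new H3 over input (log2, centred) of the 23 zone genes with at least 3 probes, by array, grouped by end. In say1, SPBPB2B2.05, SPBPB2B2.06C and pan5 each clr3-CDx2 point lies above the wt point of the same tethering state, and in fah1, grt1 and SPBC1348.12 both ON points lie under both OFF points.

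Lists of genes that act on subtelomeric chromatin were read for their own new-H3 level, wherever they lie. Of all 4596 genes, 5.83% rose and 3.68% fell in ON, and 0.783% rose and 0.305% fell in clr3-CDx2. Of the 6 SHREC genes, clr3 itself rose in clr3-CDx2 (0.83, limma adjusted p = 1e-07) and mit1, the remodelling ATPase, fell in ON (-0.51, limma adjusted p = 0.00253). Of the 11 genes of the Clr4 complex and RNA interference, hrr1 and dcr1 fell in ON (-0.49 and -0.43) and chp1 fell in clr3-CDx2 (-0.57), all past limma's threshold. By limma 0 of the 5 shelterin genes and 0 of the 6 genes of spreading and its limits passed, and 0 of either list did at an unadjusted p under 0.05. Of the 12 H3 chaperone genes, hip4 rose in ON (0.47). The list medians lay between -0.089 and 0.083 for tethering and between -0.12 and -0.001 for clr3-CDx2 in these 5 lists. Of the 8 hexose transporter genes, ght7 was the one that passed. Of the 6 listed 5Tm genes, 3 had values and all 3 fell in ON, ftm1, ftm2 and ftm5 (-0.81), and ftm5 lies outside the zone. All probes of ftm1 and ftm2 carry the f or m suffix, and their stretch has close copies elsewhere. The 5Tm genes may therefore not be separate measurements. Of the 4 galactose genes 0 passed by limma (adjusted p from 0.0951; at an unadjusted p under 0.05 all 4 rose in clr3-CDx2 and 1 fell in ON).

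The edges of the zone are a matter of distance, and the levels ran through some of them and broke at others. The 3 probes just outside and just inside an edge are given in the order wt OFF, clr3-CDx2 OFF, wt ON, clr3-CDx2 ON. At 25 kb of chromosome 1 left they read -1.29, -0.021, -0.82 and 0.60 outside and -1.56, -0.29, -1.10 and 0.35 inside, so the genotype difference crosses that edge. At 50 kb of the same end they read 0.21, 0.18, -0.42 and 0.24 inside and -0.89, 0.25, -0.27 and 0.45 outside. At chromosome 1 right they read 0.082, -0.98, -1.20 and -0.76 outside 25 kb and 0.076, -0.72, -1.0 and -0.58 inside, then -1.47, -0.59, -1.27 and -1.17 inside 50 kb and -0.29, -0.13, -0.73 and -0.59 outside. Just inside 50 kb there, 3 of the 4 arrays were under -1, which was not the case outside. Chromosome 2 left read -0.47, 0.053, -0.65 and -0.26 outside 25 kb, -0.24, 0.031, -1.16 and -0.40 inside, 0.10, -0.16, -1.16 and -1.05 inside 50 kb and -0.38, 0.10, -1.56 and -0.66 outside. Chromosome 2 right read 0.18, 0.37, 0.25 and 0.81 outside 25 kb, 0.28, 0.27, 0.17 and 0.56 inside, -0.28, 0.22, 0.049 and 0.79 inside 50 kb and 0.19, 0.37, 0.25 and 0.99 outside, with clr3-CDx2 ON highest at each.

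The zones on either side were counted in the same fit. In clr3-CDx2, 26 of 39 zone windows rose by limma, 9 of 35 at 0 to 25 kb and 58 of 118 in the next 75 kb inward, and 0 fell in any of the 3. In ON, the zone had 16 falling and 7 rising windows, the 35 windows at 0 to 25 kb had 13 falling and 6 rising, and the 118 windows further in had 9 falling and 44 rising. By end (chromosome 1 left, 1 right, 2 left, 2 right), ON minus OFF at 0 to 25 kb was 0.35, -0.39, -0.32 and -0.54 in wt. In clr3-CDx2 it was 0.43, 0.053, -0.17 and -0.17. In the next 75 kb inward the values were 0.26, 0.011, 0.29 and 0.41 in wt, and 0.11, -0.13, 0.19 and 0.33 in clr3-CDx2. At 0 to 25 kb chromosome 1 left was thus higher and chromosome 2 right lower in ON, the reverse of the zone. No test was made of the differences between zones.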

How the data were processed

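Agilent 60-mer tiling arrays, 1 probe every 300 bp, were read for 4 samples, 1 per group. Per the file headers, the authors used Feature Extraction 12.0.3.1. The deposited Cy5 and Cy3 processed signals are intensity values, background-subtracted and scaled between the dyes by 1 linear factor per array. Both channels were spatially detrended on the OFF arrays, and only Cy3 on the ON arrays. The deposited log10 ratio of the channels, which the authors' software made from these signals, was not used. The deposited value table holds log2 ratios of the same signals, uncentred, with Cy5 over Cy3, equal to the scanner values at all 41551 non-control spots within 1e-05, so its direction is known. Its column medians were 0.085 and 0.048 for wt and clr3-CDx2 in OFF, and 0.048 and 0.071 in ON. The sources used here do not name the array's genome build. The zone, the gene lists and the tests were chosen with earlier results of these data known.

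From these, 41020 spots (531 with an outlier flag on any array left out) gave log2(Cy5/Cy3), centred on each array's median. Input against base composition placed the array on ASM294v3 (scikit-learn 1.9.0), and BLAST+ 2.17.0 found copies. Means over windows of 2500 bp (at least 4 probes) and genes (at least 3 probes whose middle lies in the gene) were fitted with limma 3.58.1 in R 4.3.3, as tethering plus genotype over 4 arrays, with Benjamini-Hochberg adjustment over all windows or genes at 0.05. A pair of arrays was called at 1.5-fold, and a run was at least 5 probes whose running median over 5 reached it with no gap over 900 bp. Gene values are printed for zone genes (at least 50% of their probes inside) called in a pair or past limma; the others are given as counts and ranges. Upstream sequences were chosen as the largest genotype and tethering effect at each end. Those of ftm2, SPAC977.18 and fah1 overlap another coding gene and are not shown, which leaves chromosome 1 left with none. They were read from the genome instead of a promoter table. On simulated data the window fit called 80.6% of changes of 0.5 on the log2 scale, all of 0.8 or more and 0.293% of unchanged windows. The simulated noise was equal in all windows, near their residual SD of 0.126. The zone windows have 0.228, so these rates do not carry over to the zone. Alternatives were normexp (on median signals), signals before detrending, equal spread, other centring, zone edges, filters, window sizes and offsets, the other eBayes and factor choices, each array left out, and, added after seeing the data, the spread estimated apart from the ends to 75 kb past the zone.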

Additional observations from a re-analysis of the deposited data

Results flagged for a closer look

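At pdc102 and SPAC186.08C, neighbours at chromosome 1 right, the genotype difference had opposite signs in the 2 tethering states. At pdc102, clr3-CDx2 minus wt came to -0.76 with tethering OFF and 0.42 with it ON, and at SPAC186.08C to -0.66 and 0.49. Equally, ON minus OFF was -1.04 in wt and 0.13 in clr3-CDx2 at pdc102, and -0.76 and 0.39 at SPAC186.08C. With 1 array per group these differences between states were not tested.

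Opposite signs on the same footing, at least 1.5-fold one way, stood in 4 windows, and these differences were not tested either. At chromosome 1 left, 47.5 to 50 kb, clr3-CDx2 minus wt came to -0.091 with tethering OFF and 0.63 with it ON. At chromosome 1 right, 27.5 to 30 kb, ON minus OFF was -0.60 in wt and 0.18 in clr3-CDx2. At chromosome 2 left, 37.5 to 40 kb, it was 0.014 in wt and -0.62 in clr3-CDx2, and at 40 to 42.5 kb, over the upstream side of ght7, 0.44 and -0.69.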

How the results depend on the processing

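Of 312 alternative values of end levels and differences, 11 moved by more than 0.228, the residual SD of the zone windows, and the causes were not tested. With normexp, clr3-CDx2 minus wt in OFF at chromosome 2 left was 0.38, and levels were -0.62 (clr3-CDx2 ON) and -1.35 (wt ON) at chromosome 1 left, -0.45 (wt OFF) and -1.11 (wt ON) at chromosome 2 left, and 0.72 (clr3-CDx2 ON) at chromosome 2 right. A zone of 20 to 45 kb gave -0.17 for clr3-CDx2 minus wt in OFF and -0.30 for wt OFF at chromosome 1 right, and 30 to 55 kb gave 0.44 for the former. The median of probes was -0.62 for wt OFF at chromosome 2 left, and equal spread gave -0.25 for wt ON minus OFF there. Windows rising in clr3-CDx2 (26) numbered 14 with normexp, 1 in a fit of that factor alone, 6 to 12 in that fit with an array left out, and 17 with the spread estimated apart near the ends, an alternative added after seeing the data. Genes rising in clr3-CDx2 (8) numbered 3, 0, 0 to 1 and 0 under the same settings, and 1 gene, SPAC186.07C, fell with the array placed 300 bp further along. In ON, windows that rose (7) numbered 0 with the factor alone and 0 to 10 with an array left out, and windows that fell (16) numbered 4, 0 to 16, and 27 of 68 in windows of 1500 bp. Genes that rose in ON (3) numbered 0 alone, 0 to 4 with an array left out and 1 with separate spread, and genes that fell (10) numbered 5, 3 to 9 and 5, and 6 of 17 without suffixed probes, a setting that leaves chromosome 1 left with no probe. A fit of 1 factor with an array left out has arms that differ in the other factor, so its values mix both factors. In such fits the ON effect changed sign for SPAC186.06 (0.036 without wt ON, range -0.87 to 0.036) and for say1 (-0.14 without wt OFF and -0.17 without clr3-CDx2 ON, range -0.17 to 0.95), while ON minus OFF within each genotype did not (-0.69 in wt and -0.14 in clr3-CDx2 for SPAC186.06, 0.36 and 0.42 for say1). Of 342 values of named genes in all, 235 kept their call, 104 lost it and these 3 reversed. No paired analysis was possible because each group is 1 array, so no replicate number pairs samples beyond the fit itself, which compares ON with OFF within genotype and clr3-CDx2 with wt within tethering state. Depth limits are those of 4 arrays, with all zone probes well above background.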
